A study of Mus musculus with 18 samples.

Results

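The genes described here repair DNA double-strand breaks and DNA interstrand crosslinks. They are 38 genes listed by symbol, and they fall by role into damage signalling (9 genes), recombination (11), end joining (6) and the Fanconi pathway (12). Of the 38, 34 had a probe set that names them alone and are the members measured here, out of 19935 genes named in this way on 28815 probe sets: 8 of damage signalling, 9 of recombination, 5 of end joining and all 12 of the Fanconi pathway. Where a gene had several probe sets, the one with the highest mean over all embryos was used. Rnf8 was read only by a probe set that also names Gm28043, and Rbbp8, Xrcc2 and Dclre1c were not analysed here.

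Single mouse 2-cell embryos were measured, 1 embryo per Affymetrix Mouse Gene 1.0 ST array. The study asked whether disturbed poly(ADP-ribose) metabolism in fathers, which alters the histones kept in sperm, goes with altered transcript levels in their embryos. The 9 Parg(110)-/+ embryos came from 3 Parg(110)-/- males (PargA, PargB and PargC), and the 9 WT embryos from 3 wild-type males (WT1, WT2 and WT3), with 3 embryos per father. All mothers were wild type and mated naturally, and all animals were of the 129SVE (=129S6/SvEvTac, Taconic) background. The Parg(110)-/+ embryos carry, from the father, a Parg allele that lacks exons 2 and 3, and keep the maternal copy of Parg, which encodes the enzyme that degrades poly(ADP-ribose). Genotype belongs to the father, so that the embryo's own genotype, the father's sperm and the individual father cannot be told apart. The 9 embryos of a genotype are 3 families, and tests over embryos treat them as separate samples.

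A double-strand break is sensed by the Mre11-Rad50-Nbs1 complex, which activates the kinase Atm, and a chromatin signal of phosphorylated H2AX, Mdc1 and ubiquitin ligases then gathers repair proteins. End joining seals the ends directly through the Ku proteins, DNA-PK and ligase IV, whereas homologous recombination copies the sister chromatid with the help of the Brca proteins. The Fanconi core complex marks Fancd2 and Fanci with ubiquitin, which starts the unhooking of crosslinks. Sperm bring DNA breaks into the egg, and mouse oocytes store repair transcripts for use before the embryo transcribes its own genes.

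Values are deposited log2 RMA values (robust multichip average, a log2 scale in which 1 unit is a doubling), and a difference is Parg(110)-/+ minus WT. The median of all probe set means was 6.47, and probe sets below it are called dim. Array medians ran between 6.44 and 6.53 in Parg(110)-/+ embryos and between 6.34 and 6.49 in WT embryos, and arrays correlated with each other at 0.924 to 0.958. An array gives a transcript's level relative to the other RNA of that embryo, so less transcript per cell and a smaller share of it cannot be told apart. Of the oocyte markers measured, 10 of 11 were bright, and of the 2-cell markers 3 of 4 (Tcstv3, Zfp352 and Usp17l5). Markers of other cells were mostly dim, with 3 of 12 bright for cumulus, granulosa and oviduct cells, 1 of 8 for blood cells and 5 of 12 for spermatids. The bright spermatid genes were Prm1, Prm2, Tnp2, Odf2 and H1fnt, and the brightest had a mean of 11.35 over all embryos. The 3 lists of other cells stood slightly higher in Parg(110)-/+ embryos, in 10 of 12, 8 of 8 and 12 of 12 genes. Their mean level per embryo ran from 6.12 to 6.47 in Parg(110)-/+ and 5.95 to 6.32 in WT embryos for the cumulus list, from 5.58 to 5.79 and 5.40 to 5.69 for the blood list, and from 6.30 to 6.42 and 6.16 to 6.42 for the spermatid list. Dim probe sets as a whole moved the same way, with 75.6% higher in Parg(110)-/+ embryos against 58.6% of the bright ones. The part of this shift in the results below was not tested. Parg was read at 10.23 in Parg(110)-/+ and 10.54 in WT embryos (limma adjusted p = 0.571), which does not check the labels, since the maternal copy is kept and the probe set is not split by exon.

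Repair transcripts covered a wide range of levels in the 2-cell embryo. Of the 34 members, 24 were bright and 10 dim, and their mean levels ran from 5.18 for Prkdc to 11.45 for Brca2, with a median of 6.90. Probes bind with different strength, so these levels give no strict order of transcript amount between genes. The highest readings were those of Brca2, a central mediator of homologous recombination, and of Rnf168 and Rad50 in damage signalling, and these readings lay between the 93.9 and the 96.6 percentile of all probe sets. Damage signalling had a median level of 7.55, recombination 6.88, end joining 6.65 and the Fanconi genes 6.73.

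No member was called between the genotypes. Limma called 0 of the 34 members at an adjusted p under 0.1, as it called 0% of all probe sets, and the smallest adjusted p among the members was 0.362. At an unadjusted p under 0.05, 2 members were lower (Bard1 and Fancc) and 2 were higher (Faap20 and Xrcc3). Lower were 1.51% of all probe sets and 2.62% of the bright ones, and higher were 8.96% and 7.77%. Counted by sign alone, 22 of the 34 were lower and 12 higher in Parg(110)-/+ embryos, which is 64.7% lower, against 32.9% of all probe sets and 41.4% of the bright ones. The median difference of the members was -0.03, against a median of 0.05 over all probe sets. With every array set to the same median, 25 members were lower and their median was -0.087, while that of all probe sets was -0.0051. Without the embryos of WT2, 17 of the 34 were lower and the median was 0.0041, against 0.049 over all probe sets. The lower share of all probe sets was not computed for either run, and the 32.9% does not apply to them.

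**Figure D1:**
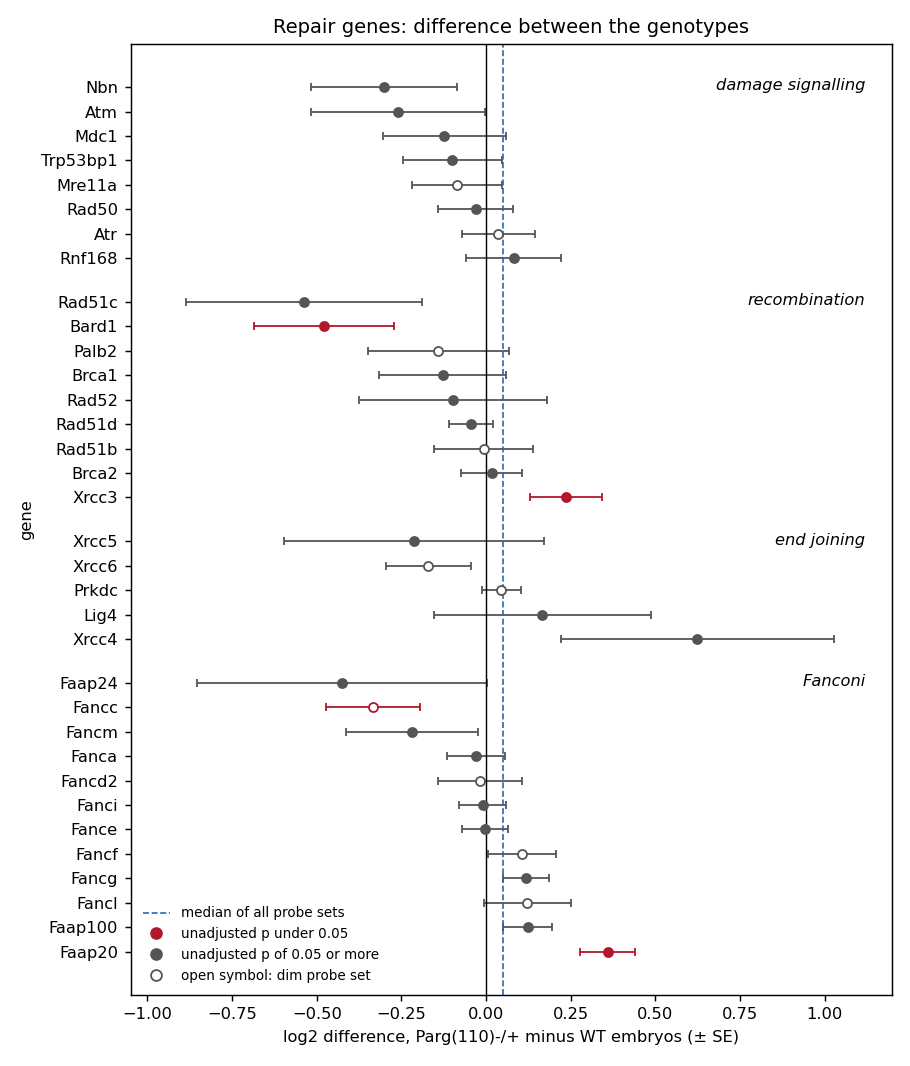
Difference in log2 value between Parg(110)-/+ and WT embryos (± SE, 9 embryos each) for the 34 measured members, grouped by role, with filled symbols for bright and open symbols for dim probe sets. Red marks the 4 members at an unadjusted p under 0.05, and the dashed line is the median of all probe sets; most members lie left of that line, and none passed the test after adjustment.

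Damage signalling genes were lower in 6 of 8 members, with a median difference of -0.09, and none was at an unadjusted p under 0.05. The median was -0.044 without WT2-1, -0.059 without PargA-2 and -0.025 without the embryos of WT2. In the other direction it was -0.15 with equal array medians and -0.11 without PargC-2. It was -0.13 without the embryos of WT3 and -0.12 without those of PargC. By family against WT, the median was -0.12 for PargA, -0.11 for PargB and 0.014 for PargC. The sensor complex itself was read unevenly. Rad50, its long coiled-coil ATPase, lay at a lowest, median and highest value of 10.43, 10.90 and 11.23 in Parg(110)-/+ embryos and of 10.41, 10.90 and 11.07 in WT embryos. The groups overlapped nearly entirely, with a difference of -0.03 ± 0.11 (SE) whose sign turned when single embryos were left out. Nbn, which encodes Nbs1 and ties the complex to Atm, ran over 6.37, 7.05 and 7.74 in Parg(110)-/+ and 6.72, 7.14 and 8.27 in WT embryos. Of the Parg(110)-/+ embryos, 7 of 9 had less than the WT average, and the difference was -0.30 ± 0.22 (SE, limma adjusted p = 0.609), or -0.18 without WT3-1. Mre11a, the nuclease of the complex, was dim, at 6.04 ± 0.30 in Parg(110)-/+ and 6.12 ± 0.28 in WT embryos (SD, n = 9 each).

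Of the kinases, Atm, which answers to double-strand breaks, measured 6.52, 7.47 and 8.03 (lowest, median and highest) in Parg(110)-/+ embryos and 6.69, 7.51 and 8.47 in WT embryos. The difference was -0.26 ± 0.26 (SE, limma adjusted p = 0.711), and the embryos of PargB had the lowest mean of the 6 families, 6.88. The difference was -0.14 without WT1-3 and -0.071 without the embryos of WT1. Atr, the kinase of single-stranded DNA and stalled forks, was dim, with 5.21 ± 0.27 in Parg(110)-/+ and 5.18 ± 0.19 in WT embryos (SD, n = 9 each).

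The chromatin arm was brighter. Rnf168, the ubiquitin ligase that marks H2A at breaks, measured 10.91, 11.38 and 11.66 in Parg(110)-/+ and 10.67, 11.43 and 11.73 in WT embryos. The groups overlapped, and the difference was 0.08 ± 0.14 (SE), or -0.027 without the embryos of WT1. The scaffold Mdc1 averaged 8.40 ± 0.41 and 8.52 ± 0.40, and Trp53bp1, which shields ends from resection, 7.67 ± 0.24 and 7.77 ± 0.39, in Parg(110)-/+ and WT embryos (SD, n = 9 each). The probe set shared by Rnf8 and Gm28043 read 9.93 on average and differed by -0.06 ± 0.18 (SE, limma adjusted p = 0.920).

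Recombination genes were lower in 7 of 9 members, the largest share of the 4 roles, with a median difference of -0.10. This median was -0.16 without WT1-1 and -0.04 without PargB-3, its extremes over single embryos, and -0.025 without the embryos of WT2. It was -0.15 with equal array medians, and -0.045 when all probe sets of a gene were averaged, so it depends on the probe set used. Bard1, the partner with which Brca1 forms a ubiquitin ligase, gave 5.92, 6.41 and 6.32 with father PargA, 6.13, 6.13 and 6.44 with father PargB and 6.42, 6.11 and 6.45 with father PargC. Among WT embryos the readings were 7.99, 6.15 and 6.77 with father WT1, 6.63, 5.98 and 7.04 with father WT2 and 7.01, 6.15 and 6.92 with father WT3. The Parg(110)-/+ embryos thus lay in a narrow band, 9 of 9 below the average of WT, while 3 WT embryos lay within that band and 6 above it. The mean was 6.26 ± 0.19 in Parg(110)-/+ and 6.74 ± 0.62 in WT embryos (SD, n = 9 each), a difference of -0.48 ± 0.21 (SE, limma adjusted p = 0.451). The exact two-sided permutation p was 0.0307 over embryos and 0.1 over fathers, where 0.1 is the smallest value that 3 fathers against 3 can give. Exact permutation p-values are unadjusted, and the members given with them were picked by limma's unadjusted p under 0.05 on the same values. They are no separate support.

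This difference belonged to 1 of the 3 probe sets that name Bard1. Probe set 10355325 was higher by 0.36 ± 0.17 (SE) in Parg(110)-/+ embryos and probe set 10355327 by 0.08 ± 0.07, against -0.48 for the set used here, 10355329. The mean of the 3 sets differed by -0.013. All 3 had similar mean levels, 6.35, 6.45 and 6.50, close to the boundary between dim and bright. Nbn showed the same kind of split, since its other probe set, 10511692, differed by 0.05 ± 0.10 and correlated with the one used at -0.498 over the 18 embryos, as a description of probe sets that share arrays.

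**Figure D2:**
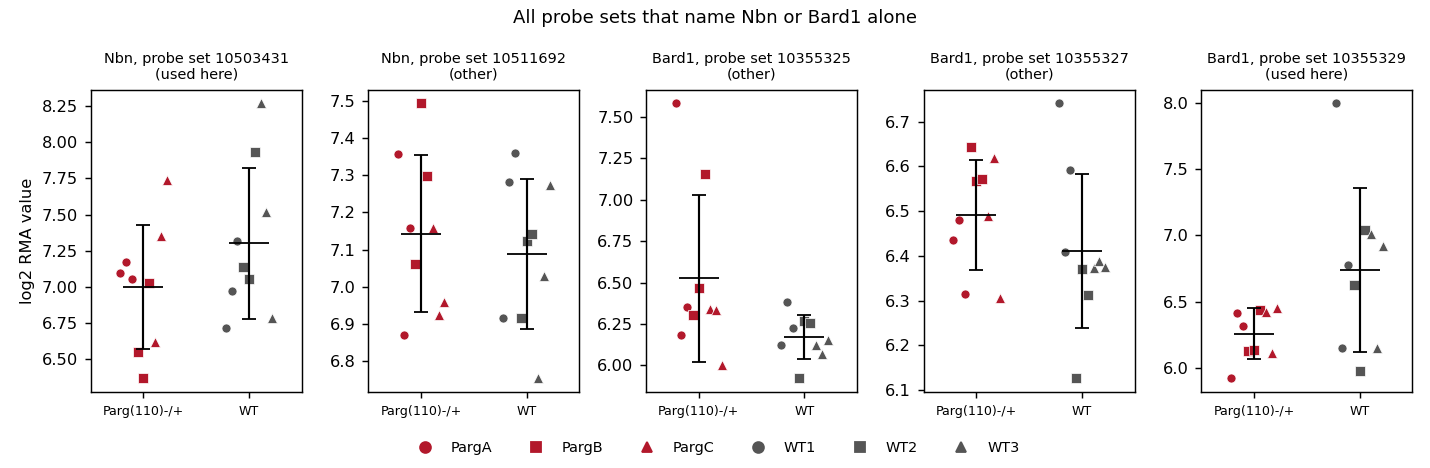
Log2 RMA value in each embryo for the 2 probe sets of Nbn and the 3 of Bard1, with Parg(110)-/+ embryos (red) left and WT embryos (grey) right, 1 symbol shape for each father and bars for the mean ± SD (n = 9). The Bard1 probe set used here was lower in Parg(110)-/+ embryos by 0.48, while both other Bard1 probe sets were higher.

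Xrcc3, a recombination protein that acts with Rad51c, measured 7.43, 7.80 and 8.37 (lowest, median and highest) in Parg(110)-/+ embryos and 7.28, 7.63 and 7.78 in WT embryos. Of the Parg(110)-/+ embryos, 5 of 9 lay above the highest WT embryo and 1 below the WT mean. The means were 7.80 ± 0.26 and 7.56 ± 0.19 (SD, n = 9 each), a difference of 0.24 ± 0.11 (SE, limma adjusted p = 0.461) with an exact two-sided permutation p of 0.0371 over embryos and 0.1 over fathers. Without PargA-2, the highest embryo, the difference was 0.16.

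Rad51c, which takes part in the complexes of Rad51b, Rad51d and Xrcc3, differed in spread more than in level. Its values kept between 6.34 and 6.81 in Parg(110)-/+ embryos, with a median of 6.58, and ran from 5.98 to 9.74 in WT embryos, with a median of 6.76. The mean was 6.61 ± 0.15 in Parg(110)-/+ and 7.15 ± 1.09 in WT embryos (SD, n = 9 each; limma adjusted p = 0.575). The wide WT range rests largely on WT1-1 at 9.74, and the other 8 WT embryos had a mean of 6.82. A narrower spread in Parg(110)-/+ embryos was not general to the members, since 18 of 34 had the smaller SD there (52.9%), against 48.5% of all probe sets.

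Brca2 was the highest reading of all members and varied little. It measured 10.96, 11.45 and 11.76 in Parg(110)-/+ embryos and 11.19, 11.45 and 11.62 in WT embryos, and averaged 11.46 ± 0.24 and 11.44 ± 0.13 (SD, n = 9 each). The difference of 0.02 ± 0.09 (SE) turned to -0.04 with equal array medians. Brca1, which steers ends towards resection, averaged 6.86 ± 0.41 in Parg(110)-/+ and 6.99 ± 0.42 in WT embryos, and Palb2, the bridge between Brca1 and Brca2, 6.32 ± 0.54 and 6.46 ± 0.36 (SD, n = 9 each). Rad52, which anneals single strands, averaged 8.09 ± 0.61 and 8.19 ± 0.62 in Parg(110)-/+ and WT embryos. Of the partners of Rad51c, Rad51d kept between 6.35 and 6.72 in Parg(110)-/+ and between 6.43 and 6.87 in WT embryos, and Rad51b was dim, at 5.02 to 6.12 and 5.04 to 5.86.

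**Figure D3:**
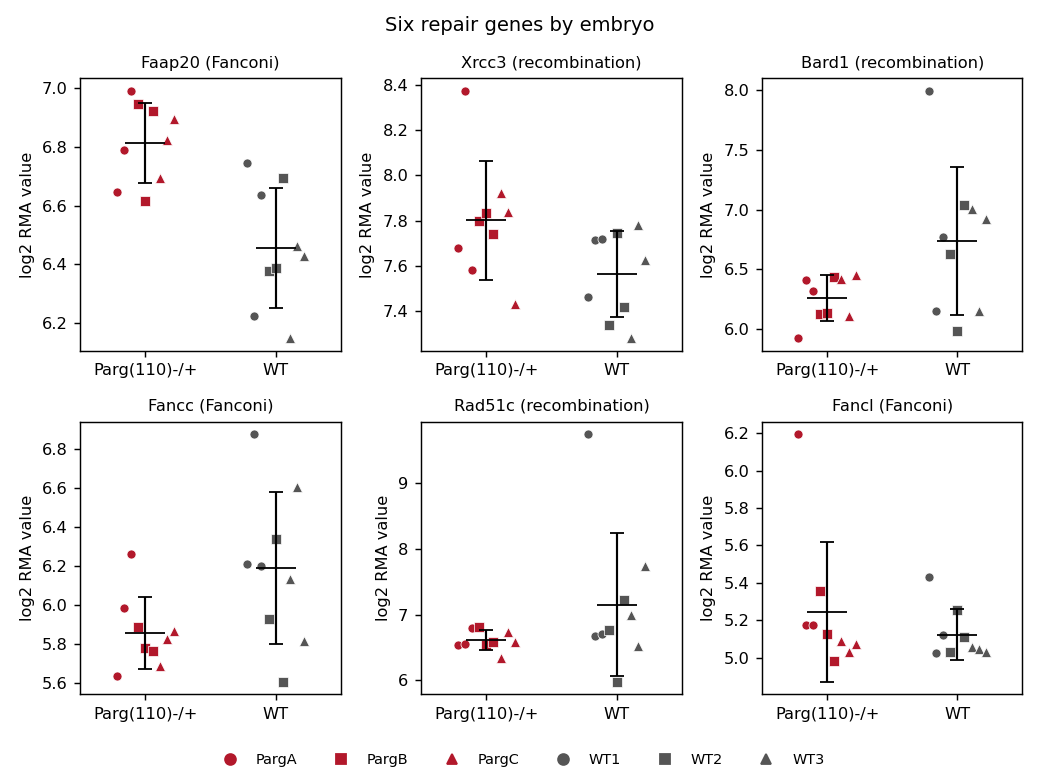
Log2 RMA value in each embryo for 6 members, with Parg(110)-/+ embryos (red) left and WT embryos (grey) right, 1 symbol shape for each father and bars for the mean ± SD (n = 9). Faap20 and Xrcc3 lie higher and Bard1 and Fancc lower in Parg(110)-/+ embryos, each with overlap, while single embryos stand apart in Rad51c (WT1-1 at 9.74) and Fancl (PargA-1 at 6.20).

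End joining genes had the highest median SD between embryos of the roles, but not every gene among them varied widely. The median SD within a genotype was 0.57 in Parg(110)-/+ and 0.53 in WT embryos, against 0.25 and 0.34 over all 34 members. The wide spread was that of Xrcc4, Xrcc5 and Lig4. Xrcc6 (SD 0.20 in Parg(110)-/+ and 0.33 in WT embryos) and Prkdc (0.10 and 0.13) lay below the medians of all members. Among the Fanconi genes, Faap24 had an SD of 1.04 in Parg(110)-/+ and 0.85 in WT embryos. Of the 5 end joining genes measured, 2 were lower and 3 higher, with a median difference of 0.04 that changed to -0.011 with equal array medians. This median difference was -0.12 without the embryos of PargA and 0.16 without those of PargC. Xrcc4, the scaffold of ligase IV, gave 9.61, 9.27 and 8.91 with father PargA, 9.67, 10.54 and 8.76 with father PargB and 9.41, 10.17 and 9.24 with father PargC. In WT embryos it ran from 6.92 in WT1-3 through a median of 8.66 to 10.60 in WT3-1. Of the Parg(110)-/+ embryos, 8 of 9 lay above the WT mean, and the difference of 0.62 ± 0.40 (SE, limma adjusted p = 0.575) was the largest among the members. It was 0.38 without WT1-3 and 0.84 without WT3-1.

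Xrcc6 and Xrcc5 encode Ku70 and Ku80, the ring that binds broken ends. Xrcc6 was dim and measured 5.47, 5.74 and 6.11 (lowest, median and highest) in Parg(110)-/+ and 5.49, 5.92 and 6.53 in WT embryos, a difference of -0.17 ± 0.13 (SE, limma adjusted p = 0.619). It was -0.097 without WT2-1 and -0.037 without the embryos of WT2. Xrcc5 ranged from 5.68 to 8.13 in Parg(110)-/+ and from 5.62 to 7.99 in WT embryos, with its highest values in PargB-2 (8.13), WT1-1 (7.99) and WT2-1 (7.98). Lig4, the ligase of this pathway, averaged 7.39 ± 0.85 and 7.23 ± 0.53, and Prkdc, the catalytic subunit of DNA-PK, was the dimmest member at 5.20 ± 0.10 in Parg(110)-/+ and 5.16 ± 0.13 in WT embryos (SD, n = 9 each).

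Fanconi genes were lower in 7 of 12 members, with a median difference of -0.01 (-0.03 to 0.05 when single embryos were left out), and held the member with the smallest p. The core complex with Fancm and Faap24, without Fancd2 and Fanci, had 10 genes, 5 lower and 5 higher. Their median difference was 0.051, as was that of all probe sets. Faap20 (chromosome 4), the ubiquitin-binding subunit of the core complex that binds Fanca, gave 6.65, 6.79 and 6.99 with father PargA, 6.95, 6.62 and 6.92 with father PargB and 6.69, 6.82 and 6.90 with father PargC. Among WT embryos the readings were 6.75, 6.22 and 6.64 with father WT1, 6.38, 6.39 and 6.70 with father WT2 and 6.15, 6.46 and 6.43 with father WT3. All 9 Parg(110)-/+ embryos lay above the WT mean and 6 of 9 above the highest WT embryo. The means per father were 6.81, 6.83 and 6.80 for PargA, PargB and PargC, against 6.53, 6.49 and 6.35 for WT1, WT2 and WT3. The genotypes differed by 0.36 ± 0.08 (SE) with a limma adjusted p of 0.362, an exact two-sided permutation p of 8.23e-04 over embryos and 0.1 over fathers. The permutation p over embryos is unadjusted and treats embryos of a father as separate, and Faap20 was singled out for its small p. The difference ran from 0.30 to 0.40 when a father was left out, and was 0.30 with equal array medians. The level of Faap20, 6.63, lies just above the boundary between dim and bright, and dim probe sets moved in the same direction.

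Fancc (chromosome 13), a subunit of the core complex like Fance and Fancf, was dim. It measured 5.64, 5.82 and 6.26 (lowest, median and highest) in Parg(110)-/+ and 5.61, 6.20 and 6.88 in WT embryos. Of the Parg(110)-/+ embryos, 8 of 9 lay under the WT average, and all lay within the WT range. The means were 5.86 ± 0.18 and 6.19 ± 0.39 (SD, n = 9 each), a difference of -0.33 ± 0.14 (SE, limma adjusted p = 0.443) with an exact two-sided permutation p of 0.0310 over embryos and 0.2 over fathers. It was -0.22 without the embryos of WT1.

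Fancl, the ubiquitin ligase subunit of the core complex, was dim, lay between 4.98 and 5.43 in 17 of the 18 embryos, and read 6.20 in PargA-1. The difference of 0.12 ± 0.13 (SE) was 0.0024 without that embryo and -0.014 without the embryos of PargA. Fancm, the translocase that brings the core complex to DNA, was the brightest Fanconi gene, with 8.96, 9.82 and 10.21 in Parg(110)-/+ and 9.51, 9.75 and 10.65 in WT embryos. Its partner Faap24 was bright and variable, with 7.10, 9.51 and 10.44 in Parg(110)-/+ and 8.19, 9.71 and 11.09 in WT embryos, a difference of -0.43 ± 0.43 (SE, limma adjusted p = 0.715). The lowest embryo was PargB-1 at 7.10, and without it the difference was -0.16.

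The other core genes lay in narrow bands at similar values in both genotypes. Fanca averaged 6.93 ± 0.16 in Parg(110)-/+ and 6.96 ± 0.20 in WT embryos, Fancg 7.23 ± 0.13 and 7.11 ± 0.15, and Fance 6.73 ± 0.18 and 6.73 ± 0.09 (SD, n = 9 each). Faap100 averaged 7.04 ± 0.17 and 6.91 ± 0.13 and Fancf 6.37 ± 0.25 and 6.26 ± 0.18. Of the pair that the core complex modifies, Fanci was at 6.73 ± 0.07 in Parg(110)-/+ and 6.74 ± 0.19 in WT embryos, and Fancd2, which varied more in WT embryos (5.30 to 6.28), at 5.68 ± 0.16 and 5.70 ± 0.34.

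**Figure D4:**
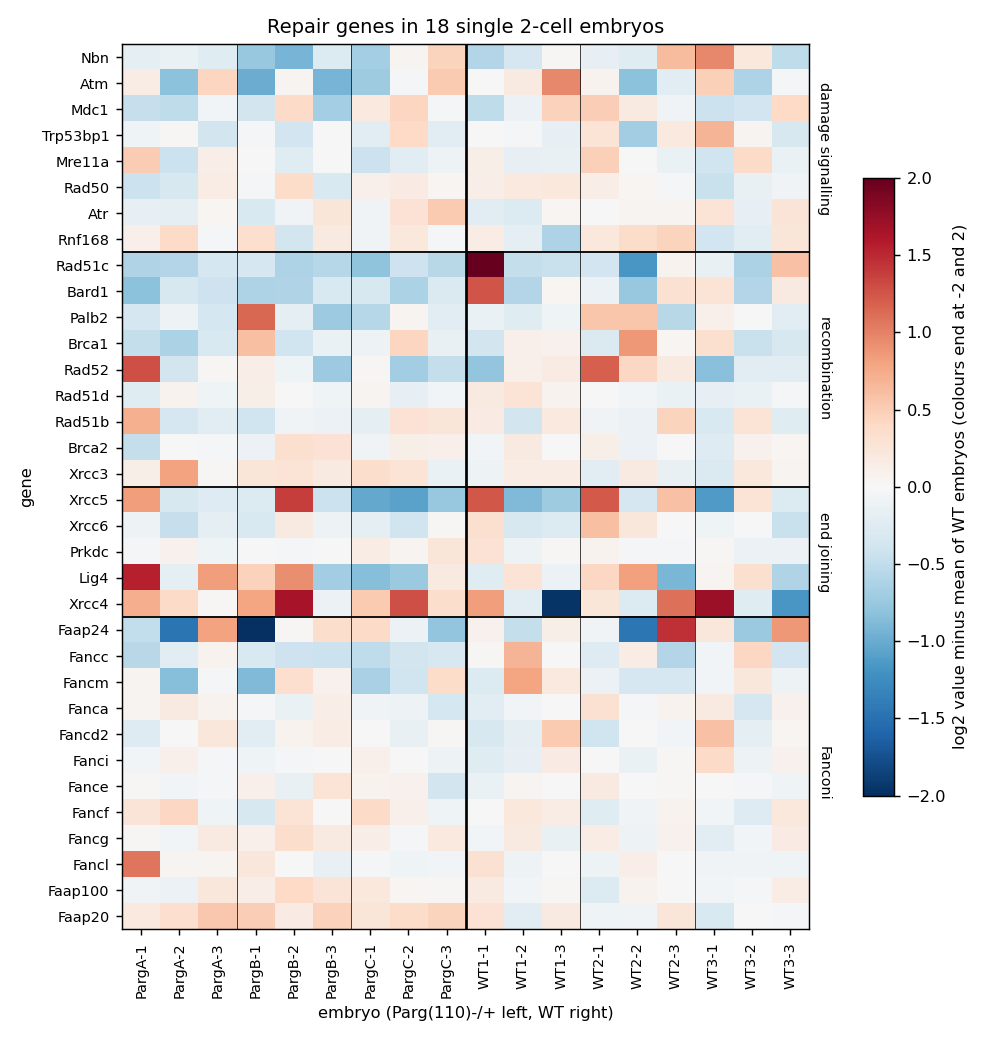
Log2 value minus the mean of the WT embryos for the 34 members (rows, grouped by role) in the 18 embryos (columns, Parg(110)-/+ left and WT right), with colours that end at -2 and 2. No embryo is low or high throughout; deep colours are single readings such as Rad51c in WT1-1 and Faap24 in PargB-1, and the rows of Faap24, Xrcc4, Xrcc5 and Rad51c are the most uneven.

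Within families, 0 of 34 members were called against WT for PargA, PargB and PargC, where 0%, 0.0139% and 0.0104% of all probe sets were. The median difference of the members was -0.013 for PargA, -0.0089 for PargB and -0.049 for PargC, against 0.028, 0.071 and 0.038 over all probe sets. Differences among the 3 fathers of a genotype, by limma's F test, were called for 0 members in Parg(110)-/+ and 0 in WT embryos, against 0.0104% and 0.00347% of all probe sets.

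When each Parg(110)-/+ embryo was set against the 9 WT embryos, limma called 1 member, Fancl in PargA-1 (6.20 against a WT mean of 5.12, a difference of 1.07 ± 0.15 SE, adjusted p = 0.0146). In this comparison 0.628% of all probe sets were called. The remaining 8 embryos had 0 members called, where 0.635% and 0.604% of all probe sets were called for PargA-2 and PargA-3, 2.17%, 0.691% and 0.826% for PargB-1, PargB-2 and PargB-3, and 0.76%, 0.625% and 0.843% for PargC-1, PargC-2 and PargC-3. WT embryos measured the same way, each against the other 8, also gave 1 call, Rad51c in WT1-1 (9.74 against 6.82, a difference of 2.92 ± 0.50 SE, adjusted p = 0.0490), beside 0.732% of all probe sets. The other 8 WT embryos had 0 members called, with 0.479% and 0.708% of all probe sets for WT1-2 and WT1-3, 0.93%, 0.68% and 0.6% for WT2-1, WT2-2 and WT2-3, and 1.15%, 0.732% and 0.569% for WT3-1, WT3-2 and WT3-3. A call of a lone embryo assumes that it varies like the group it is set against, and 1 member in 9 embryos was called on either side. PargB-1, the embryo with the most calls over all probe sets, held the lowest value of the 18 for 6 members, 3 of them bright, and WT3-1 for 6, all bright. WT3-1 also held the highest value for 5 members, and PargB-1 for 1. The mean deviation of the members from their average over all embryos was 0.041 in WT3-1 and -0.092 in PargB-1. Over all bright probe sets, PargB-1 was lowest in 9.54%, WT3-1 in 11.4% and WT2-1 in 13.3%.

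Members that work as partners mostly did not vary together over the 18 embryos. For 16 pairs of partners, values were taken as deviations from the mean of their genotype, and p-values came from 100000 permutations within genotype; the pairs were chosen after the values were at hand. Xrcc5 and Xrcc6 correlated at Pearson's r = 0.668 (permutation p = 0.00365, 0.0389 adjusted over 16 pairs) and Spearman's rho = 0.635 (permutation p = 0.00883, 0.141 adjusted). The relation stood in both genotypes, with r = 0.574 in Parg(110)-/+ and 0.743 in WT embryos, and r was 0.550 without the 2 embryos farthest from the median of Xrcc5. Fancd2 and Fanci correlated at r = 0.726 (permutation p = 0.00486, 0.0389 adjusted) and rho = 0.534 (permutation p = 0.0366, 0.292 adjusted). That relation rests on WT embryos with high values of both genes, WT1-3 and WT3-1, since r was 0.217 in Parg(110)-/+ and 0.819 in WT embryos and 0.424 without the 2 embryos farthest out. For the other 14 pairs the adjusted permutation p of r was 0.226 or more. Rad50 and the Nbn probe set used here gave r = -0.487 and rho = -0.432 (adjusted permutation p 0.226 and 0.403). The other Nbn probe set, which correlated with the one used at -0.498, was not set against Rad50. Over all 561 pairs of members the median r was -0.019, with 22 above 0.5 and 14 below -0.5.

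**Figure D5:**
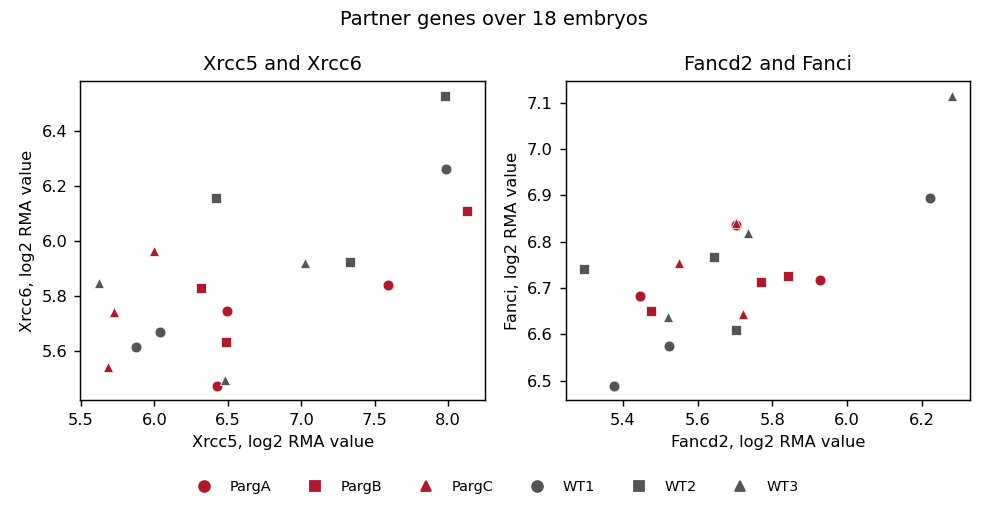
Log2 RMA values of Xrcc5 against Xrcc6 and of Fancd2 against Fanci, 1 point per embryo, with Parg(110)-/+ embryos in red, WT embryos in grey and a symbol shape for each father. Xrcc5 and Xrcc6 vary together in both genotypes (r = 0.574 in Parg(110)-/+ and 0.743 in WT embryos), while the relation of Fancd2 and Fanci rests on WT1-3 and WT3-1.

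Other genes of these pathways, 60 listed and 56 measured, gave 0 calls as well. Of them 45 were bright, and 31 were lower and 25 higher, with a median difference of -0.015. The lower share was 55.4%, against 32.9% of all probe sets and 41.4% of the bright ones. At an unadjusted p under 0.05, 6 were lower (10.7%, against 1.51% of all probe sets and 2.62% of the bright ones). In the other direction, 1 was higher (1.79%, against 8.96% and 7.77%). Among the lower ones were members of the complex that dissolves joined DNA strands. Blm, its helicase, measured 7.94, 8.61 and 9.53 (lowest, median and highest) in Parg(110)-/+ and 8.74, 9.54 and 9.98 in WT embryos, a difference of -0.82 ± 0.21 (SE, limma adjusted p = 0.362). Top3a, the topoisomerase that works with Blm, measured 6.48, 6.92 and 7.28 in Parg(110)-/+ and 6.93, 7.35 and 8.10 in WT embryos (difference -0.40 ± 0.16 SE, adjusted p = 0.423). Of their partners, Rmi1 averaged 9.90 ± 0.97 in Parg(110)-/+ and 10.23 ± 0.46 in WT embryos, and Rmi2, which was dim, 5.94 ± 0.16 and 5.83 ± 0.12 (SD, n = 9 each).

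Of the remaining lower genes, Fam175a (now Abraxas1), which brings Brca1 to ubiquitin marks, differed by -0.87 ± 0.33 (SE). Eme1, a subunit of the Mus81 nuclease, differed by -0.86 ± 0.39, and its values ran from 6.32 to 7.18 in Parg(110)-/+ and from 6.57 to 9.62 in WT embryos. Polq, the polymerase of alternative end joining, differed by -0.41 ± 0.18, and Topbp1, an activator of Atr, by -0.18 ± 0.09. Slx1b, a nuclease subunit that works with Slx4, was the higher one at 0.16 ± 0.06. For these 5 genes limma gave an adjusted p of 0.418 to 0.477. The differences of these 5 genes, Blm and Top3a kept their sign under each alternative run. All were picked by an unadjusted p under 0.05 on the same values, and some runs leave a difference unchanged. A kept sign is therefore no separate support. Fam175a is dim, so it was not in the fit on bright probe sets. Leaving out a father moved Fam175a to -0.50 (without WT2), Eme1 to -0.53 (without WT1) and Top3a to -0.25 (without PargA).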

How the data were processed

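RNA of single embryos was amplified to cDNA with the WT-Ovation One-Direct kit and hybridised to 1-colour arrays. The authors background-corrected and quantile-normalised the intensities and summarised them per probe set with RMA in Partek; the deposited values are log2 values, and tool versions are not given in the sources used here. RMA compresses dim probe sets, and quantile normalisation hides shifts shared by most genes. Of 28815 probe sets, 21780 name 1 gene, 1605 several, and 5430 were unlisted; genes were named from the first kind, and chromosomes are from RefSeq.

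Models were fitted to all probe sets with limma 3.58.1 (lmFit and eBayes) in R 4.3.3. Tests were two-sided, with p-values adjusted by Benjamini-Hochberg and calls at an adjusted p under 0.1. Exact permutation tests used 48620 assignments of embryos or 20 of fathers. The fits were tested on simulated data. Members and lists were chosen with earlier results of these data known. Values by embryo were given for members at an unadjusted p under 0.05 or called in a family or embryo, the 2 of each role with the smallest p, the 3 brightest and the 2 most variable bright ones; Rad51c was added, and the other members are given by mean or range. Alternatives were rescaled arrays, father as a random block, means per father, the methods' one-way test, bright probe sets, the mean of a gene's probe sets, and leaving out embryos or fathers. Slide and scan day were not used here.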

Additional observations from a re-analysis of the deposited data

Results flagged for a closer look

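In 6 of 68 groups of 9 embryos (34 members in 2 genotypes, 8.82%), the highest or lowest embryo stood farther from its neighbour than Dixon's 95% limit for 9 values. Independent normal values would pass that limit in about 1 in 20 groups, but these groups share the same arrays. The share over all probe sets was not computed, so the count does not set the members apart. All 6 were high readings, 3 in each genotype. In Parg(110)-/+ embryos they were Palb2 in PargB-1 at 7.61, with the next embryo at 6.51, Rad52 in PargA-1 at 9.48, with the next at 8.33, and Fancl in PargA-1 at 6.20, with the next at 5.35. In WT embryos they were Rad51c in WT1-1 at 9.74, with the next at 7.74, Prkdc in WT1-1 at 5.44, with the next at 5.23, and Fancm in WT1-2 at 10.65, with the next at 10.08. Prkdc is dim throughout. Causes of these single readings were not tested.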

How the results depend on the processing

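Limma called 0 members between the genotypes under every alternative run. The 13 members and 7 other pathway genes whose differences were followed kept sign and side of the threshold in 602 of 616 values (smallest adjusted p 0.260). The count says little about stability, since most of these genes were picked for a small p and none lay near the threshold. Father as a random block, means per father and the one-way test also leave each difference unchanged. The median difference of the members was -0.087 with equal array medians and ran from -0.049 to -0.015 when single embryos were left out. Members at an unadjusted p under 0.05 numbered 4, from 2 to 4 when single embryos were left out, 2 without father WT3, 1 without PargB, 2 without PargC, and 6 on means per father. The sign turned for Brca2 (-0.0401 with equal array medians, -0.0064 without father WT3, -0.057 without PargB, -0.00092 without PargC, and -0.022 to 0.078 over single embryos), for Rad50 (0.0601 without father WT1, 0.0537 without PargA, and -0.087 to 0.019 over single embryos), for Rnf168 (-0.027 without father WT1) and for Fancl (-0.014 without father PargA). The call of Fancl in PargA-1 gave 0 members among bright probe sets only, since Fancl is dim and was not tested there. No paired analysis was possible because embryo numbers are nested within fathers, and the fathers differ between genotypes. Dim members have little signal over background, which limits any difference in them.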
